A study of Mus musculus with 10 samples.

Results

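The primary granule genes examined here were *Mpo*, *Elane*, *Prtn3*, *Ctsg*, *Prss57*, *Srgn*, *Lyz2*, *Ms4a3*, *Nkg7*, and *Plac8*, 10 of the 51717 genes to which transcripts were summed. They were chosen by name, as the proteins of azurophil (primary) granules and genes that accompany them in granulocyte progenitors. RNA-seq was available for CD45.2+ granulocyte-macrophage progenitors (GMPs) sorted from bone marrow of mixed chimeras, in which irradiated CD45.1 recipients carried donor CD45.2 cells beside CD45.1 WT cells. The 5 WT samples were *ROSA26 CreER+/-*, and the 5 recent KO samples were *Mpc2fl/fl; ROSA26 CreER+/-*. All mice were male C57Bl6/N, and all had received tamoxifen for 2 wk, so both groups carried CreER and the drug. Each WT sample was 1 mouse, but GMPs of 2 mice were pooled for each recent KO sample, which evens out differences between animals in 1 group only. CreER is expressed from *ROSA26* in all CD45.2 donor cells, so deletion in these cells was not restricted to GMPs. The question was whether acute loss of *Mpc2*, which encodes a subunit of the mitochondrial pyruvate carrier, was accompanied by other levels of the granule transcripts.

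Azurophil granules are the first granules made during granulopoiesis, at the promyelocyte stage, and GMPs already transcribe their contents at high levels. Neutrophil elastase (*Elane*), proteinase 3 (*Prtn3*), cathepsin G (*Ctsg*), and neutrophil serine protease 4 (*Prss57*) are serine proteases that are activated by cathepsin C and stored in these granules. The granules also hold the proteoglycan serglycin (*Srgn*), and myeloperoxidase (*Mpo*) makes hypochlorous acid from hydrogen peroxide. C/EBP factors, PU.1, MYB, and RUNX1 are known activators of these genes, and as neutrophils mature, primary granule transcription stops and that of secondary granule proteins begins.

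Of the 10 genes, 9 had a promoter in the RefSeq table of GRCm38.p6, and *Prss57* had none. Because the granule genes are known targets of ETS factors such as PU.1, the 250 bases before each start site were searched on both strands for the letters GAGGAA, the core of many PU.1 sites. GAGGAA was present in 5 of the 9 promoters, and 23.3% of all 32851 promoters held it. The 5 promoters that hold it are shown 5′ to 3′ on the gene's strand, up to the first annotated exon base inside the window, with GAGGAA in capitals. They are chr11:87793534-87793580 (+), chr10:79886062-79886246 (+), chr10:79879417-79879613 (+), chr14:56102575-56102824 (-), and chr5:100572246-100572455 (-).
Mpo: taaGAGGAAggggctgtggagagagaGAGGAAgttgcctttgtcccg
Elane: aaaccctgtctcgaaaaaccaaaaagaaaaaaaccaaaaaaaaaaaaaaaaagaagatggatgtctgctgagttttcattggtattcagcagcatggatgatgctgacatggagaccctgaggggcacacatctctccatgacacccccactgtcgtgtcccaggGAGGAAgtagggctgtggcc
Prtn3: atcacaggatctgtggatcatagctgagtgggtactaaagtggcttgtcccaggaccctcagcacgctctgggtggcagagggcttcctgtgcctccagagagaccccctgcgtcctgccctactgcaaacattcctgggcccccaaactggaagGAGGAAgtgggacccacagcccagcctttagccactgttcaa
Ctsg: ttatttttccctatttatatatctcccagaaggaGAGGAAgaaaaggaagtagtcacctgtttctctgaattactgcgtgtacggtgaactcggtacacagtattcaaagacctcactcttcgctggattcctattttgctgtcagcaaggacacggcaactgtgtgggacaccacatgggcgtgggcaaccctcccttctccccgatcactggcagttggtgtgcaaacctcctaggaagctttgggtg
Plac8: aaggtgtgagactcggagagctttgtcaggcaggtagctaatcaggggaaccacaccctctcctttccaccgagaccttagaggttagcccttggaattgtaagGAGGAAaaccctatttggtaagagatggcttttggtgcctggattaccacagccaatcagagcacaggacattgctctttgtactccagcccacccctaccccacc

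For *Prtn3* the RefSeq start site lay 5191 bases from the start of the annotated gene, so the stretch shown lies inside that gene. *Mpo* held GAGGAA 2 times, both at the far end of the window. *Plac8* held a further match on the other strand, in the annotated exon and not shown. Of the other motifs, TTNNGNAA (C/EBP) was found in *Ms4a3*, *Lyz2*, and *Plac8*, 3 of the 9 against 36.8% of all promoters. TGTGGT (RUNX) was found in 4 of the 9 against 14.0%, AACNG (MYB) in 7 against 74.2%, and TATAAA in 2 against 12.4%. These motifs may overlap one another, and a match describes letters in this window and not a bound site.

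On GRCm38, 5 of the 10 genes lie on chromosome 10. *Prss57* (79781474 to 79790961, minus strand), *Prtn3* (79874476 to 79883174, plus strand), and *Elane* (79886247 to 79888215, plus strand) sit within 107 kb, and 3072 bases separate the last 2. *Srgn* (62493833 to 62527451) and *Lyz2* (117277331 to 117282321) lie apart from them on the minus strand. *Mpo* is on chromosome 11 (87793581 to 87804413, plus strand), *Ctsg* on chromosome 14 (56099881 to 56102574, minus strand), and *Ms4a3* on chromosome 19 (11629496 to 11640851, minus strand). *Nkg7* is on chromosome 7 (43437073 to 43438249, plus strand), and *Plac8* is on chromosome 5 (100553725 to 100572245, minus strand).

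The libraries totaled 14033776 to 19745405 estimated reads. *Mpc2* was lower in every recent KO sample than in any WT sample, with 17.1 to 43.9 normalized counts (CPM) against 60.9 to 117 (log2 fold change -1.46, adjusted p = 0.0156 by edgeR's quasi-likelihood test). The markers of the GMP gate were present, with *Kit* at 31.5 to 47.7 CPM, *Cd34* at 165 to 362 CPM, and *Fcgr3* (CD16) at 153 to 456 CPM. Of the genes set beforehand to be low in the gate, *Il7r* reached at most 0.140 CPM. The others were detected, with *Ly6a* at 7.27 to 12.7 CPM and *Slamf1* at 4.27 to 9.25 CPM over all samples. CPM are counts relative to library size, scaled by TMM (trimmed mean of M values), and a positive log2 fold change means a higher level in recent KO samples throughout.

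In WT GMPs the 10 genes took up 10.4, 12.1, 11.8, 12.7, and 10.04% of all estimated reads in samples 1 to 5. They took up 9.12, 10.1, 6.39, 8.28, and 8.70% in recent KO samples 1 to 5. The highest recent KO sample, sample 2, lay between the lowest pair of WT samples, and the other 4 recent KO samples lay below all WT samples. The mean share of 8.52% ± 1.38 in recent KO samples was 0.747 of the WT mean of 11.4% ± 1.14 (SD, n = 5). *Mpo* and *Elane* together made up 70.5 to 73.7% of this share in the WT group and 65.5 to 74.3% in the recent KO group. Without *Mpo* the ratio was 0.761, and as a share of TPM (abundance scaled to transcript length) it was 0.750. Because the share is of all reads, fewer granule-rich cells and less granule RNA per cell cannot be told apart in these bulk samples.

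**Figure D1:**
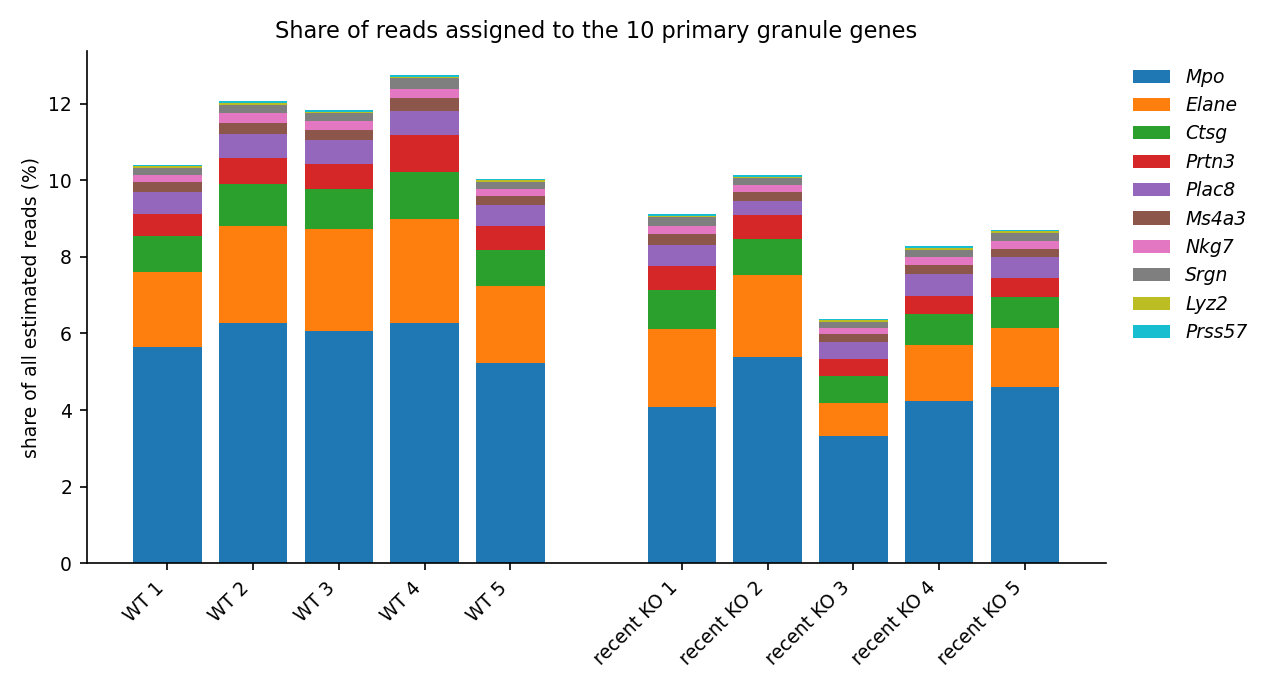
Share of all estimated reads (%, stacked from 0) assigned to each of the 10 primary granule genes, with 1 bar for each of the 5 WT and 5 recent KO samples. WT bars reach 10.04 to 12.7% and recent KO bars 6.39 to 10.1%, with *Mpo* the largest part of every bar.

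Levels can be compared between genes per length, in TPM. In WT samples *Elane* was at 27252 ± 3643 TPM, *Mpo* at 22299 ± 1622.4 TPM, *Ctsg* at 11805 ± 1309 TPM, *Plac8* at 10648 ± 571 TPM, and *Prtn3* at 9185 ± 1715 TPM (SD, n = 5). *Nkg7* (3658 ± 396 TPM), *Ms4a3* (3236 ± 466 TPM), and *Srgn* (2482 ± 430 TPM) followed. *Lyz2* (363 ± 48.5 TPM) and *Prss57* (213 ± 9.55 TPM) were the lowest. In this order the ranges of mean ± SD overlapped for *Elane* and *Mpo*, for *Ctsg*, *Plac8*, and *Prtn3*, and for *Nkg7*, *Ms4a3*, and *Srgn*, and did not overlap between these groups or for *Lyz2* and *Prss57*. By reads, *Mpo* ranked first of all genes in every sample, and by TPM *Mpo* ranked 1 or 2 in every sample, whereas *Elane* ranked 1 to 7.

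When recent KO and WT GMPs were compared, all 10 genes had negative log2 fold changes, as did 50.4% of all genes tested, but none passed the test. Among all genes, 41 of 12381 (0.331%) were called at an adjusted p below 0.05, and 0 of the 10 were. At an unadjusted p below 0.05, 6 of the 10 were lower and 0 were higher, where 5.35% of all genes tested were lower and 4.89% higher. The median log2 fold change of the 10 genes was -0.32, and that of all genes tested was -0.002, with 7.31% of all genes at or below the median of the 10. In none of the 10 genes were the groups free of overlap, which 2.43% of all genes were. DESeq2 called 1 of the 10 (*Mpo*, adjusted p = 0.00245) where it called 1.09% of genes, and limma on log2(TPM + 1) called 0, where it called 0.242%.

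*Mpo* was at 54687, 64455, 65251, 69039, and 51593 CPM in WT samples 1 to 5 and at 41980, 52804, 31826, 40871, and 44556 CPM in recent KO samples 1 to 5. Recent KO sample 2 lay just above the lowest WT sample, and the other 4 recent KO samples were below all WT samples. The means of 61005 ± 7466 and 42407 ± 7537 CPM (SD, n = 5) corresponded to a log2 fold change of -0.52 ± 0.17 (SE), with an adjusted p of 0.272 by edgeR and an unadjusted p of 0.00753. A two-sided exact permutation test of the CPM gave p = 0.0159, where the smallest p that 5 against 5 samples allow is 0.00794. Without a filter on low counts, edgeR called *Mpo* (adjusted p = 0.0167), *Elane*, and *Prtn3*, 3 of the 10, where it called 0.738% of all genes.

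*Elane*, which encodes the elastase that gives the most abundant transcript per length in WT GMPs, had the largest difference of the 10. Its levels were 18841, 26119, 28564, 29692, and 20012 CPM in WT samples and 20979, 21138, 8375, 14164, and 14763 CPM in recent KO samples. Recent KO samples 1 and 2 exceeded WT samples 1 and 5, and recent KO sample 3 was far below all other samples. The log2 fold change was -0.63 ± 0.23 (SE, adjusted p = 0.360, edgeR), and without recent KO sample 3 it was -0.47.

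The other proteases did not pass the test either. *Prtn3* was at 5759, 6879, 7238, 10561, and 6218 CPM in WT samples and at 6458, 6180, 4170, 4675, and 4972 CPM in recent KO samples. WT sample 4 stood above all others, and recent KO sample 1 exceeded WT samples 1 and 5. The log2 fold change of *Prtn3* was -0.47 ± 0.17 (SE, adjusted p = 0.354, edgeR), and without WT sample 4 it was -0.30. *Ctsg* was at 8953, 11385, 11194, 13530, and 9195 CPM in WT samples and at 10437, 9047, 6829, 7702, and 7756 CPM in recent KO samples. As for *Prtn3*, recent KO samples 1 and 2 lay among the WT samples, and recent KO samples 3, 4, and 5 lay below all of them. The log2 fold change of *Ctsg* was -0.38 ± 0.14 (SE, adjusted p = 0.389, edgeR). *Prss57*, the protease of lowest level, was at 375 to 469 CPM in WT samples and at 437, 394, 266, 349, and 307 CPM in recent KO samples, with a log2 fold change of -0.23 ± 0.12 (SE, adjusted p = 0.529, edgeR).

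**Figure D2:**
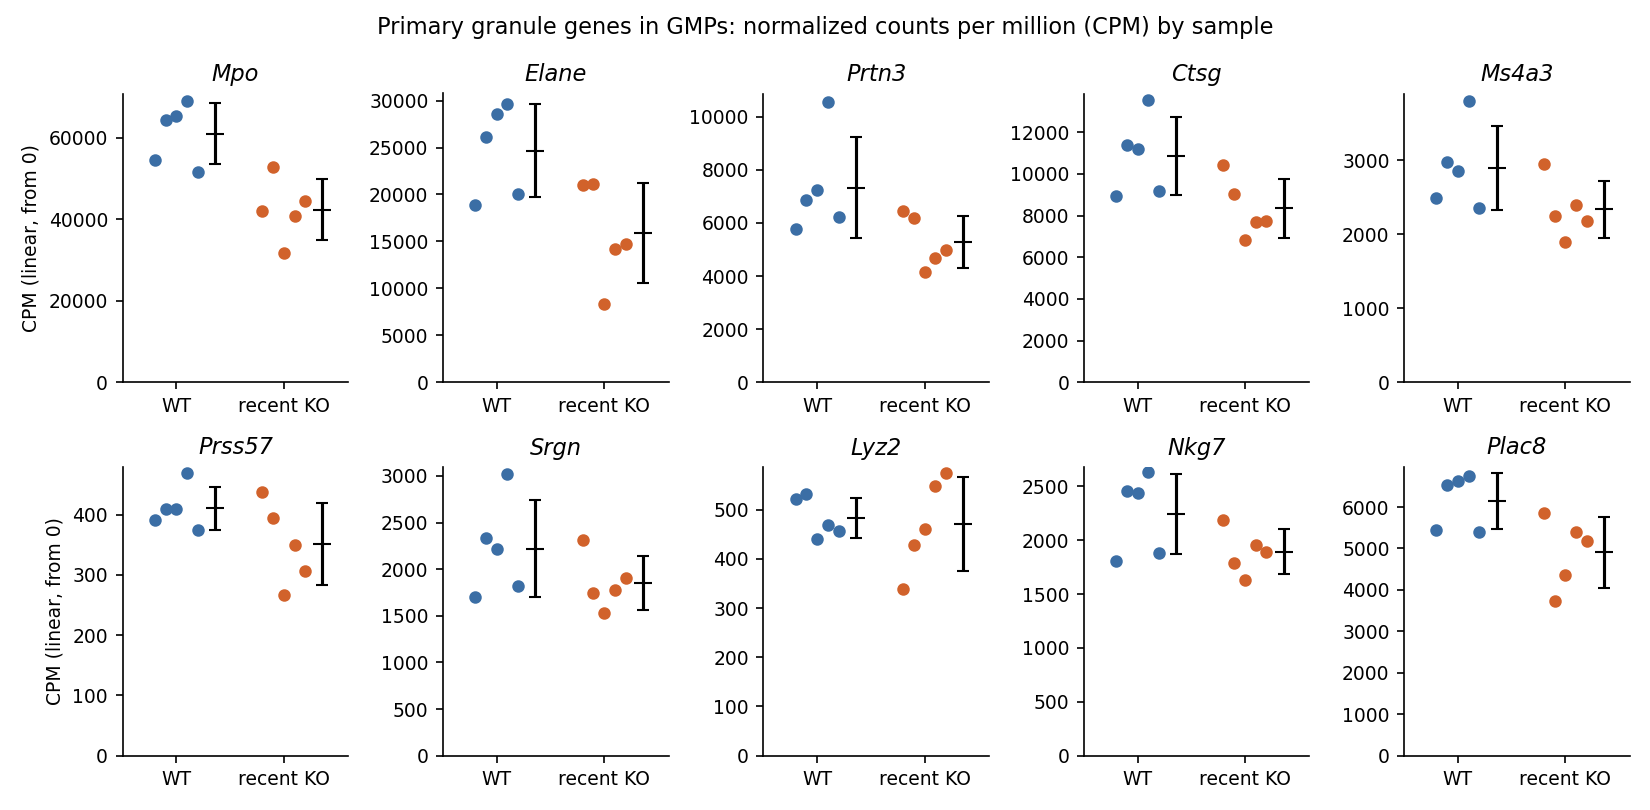
Normalized CPM (linear axes from 0) of each gene in the 5 WT (blue) and 5 recent KO (orange) samples, in the order of sample number, with the mean ± SD at the right of each group. The groups overlap for all 10 genes, and *Lyz2* has the smallest difference between the means.

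None of the companions of the proteases passed the test. *Srgn*, which encodes the core protein of serglycin, was at 1700, 2334, 2220, 3021, and 1816 CPM in WT samples. In recent KO samples it was at 2310, 1743, 1529, 1779, and 1903 CPM. Only recent KO sample 3 was below all WT samples, and the log2 fold change was -0.26 ± 0.15 (SE, adjusted p = 0.595, edgeR). *Plac8*, a cysteine-rich protein of myeloid cells, was at 5387 to 6743 CPM in WT samples and at 5861, 3724, 4370, 5402, and 5188 CPM in recent KO samples, with its lowest value in recent KO sample 2 and not in sample 3. Its log2 fold change was -0.32 ± 0.13 (SE, adjusted p = 0.406, edgeR). *Ms4a3*, a membrane protein that marks the GMP and its progeny, had a log2 fold change of -0.31 ± 0.14 (SE, adjusted p = 0.462), from 2350 to 3809 CPM in WT samples and from 1897 to 2953 CPM in recent KO samples. *Nkg7*, a granule membrane protein also known from cytotoxic lymphocytes, had a log2 fold change of -0.25 ± 0.12 (SE, adjusted p = 0.495), from 1807 to 2629 CPM in WT samples and from 1629 to 2191 CPM in recent KO samples.

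*Lyz2*, the lysozyme of granulocytes and macrophages, stood apart from the other 9 genes. It was at 521, 533, 440, 469, and 456 CPM in WT samples and at 339, 427, 461, 549, and 575 CPM in recent KO samples. Recent KO samples held both the lowest and the highest value, so the WT samples lay inside the range of the recent KO samples. Its log2 fold change of -0.04 ± 0.12 (SE, adjusted p = 0.947, edgeR) turned to 0.03 when libraries were scaled by their size only, and to 0.06 without recent KO sample 1. For the other 9 genes the log2 fold change was negative under all 23 other settings tried.

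**Figure D3:**
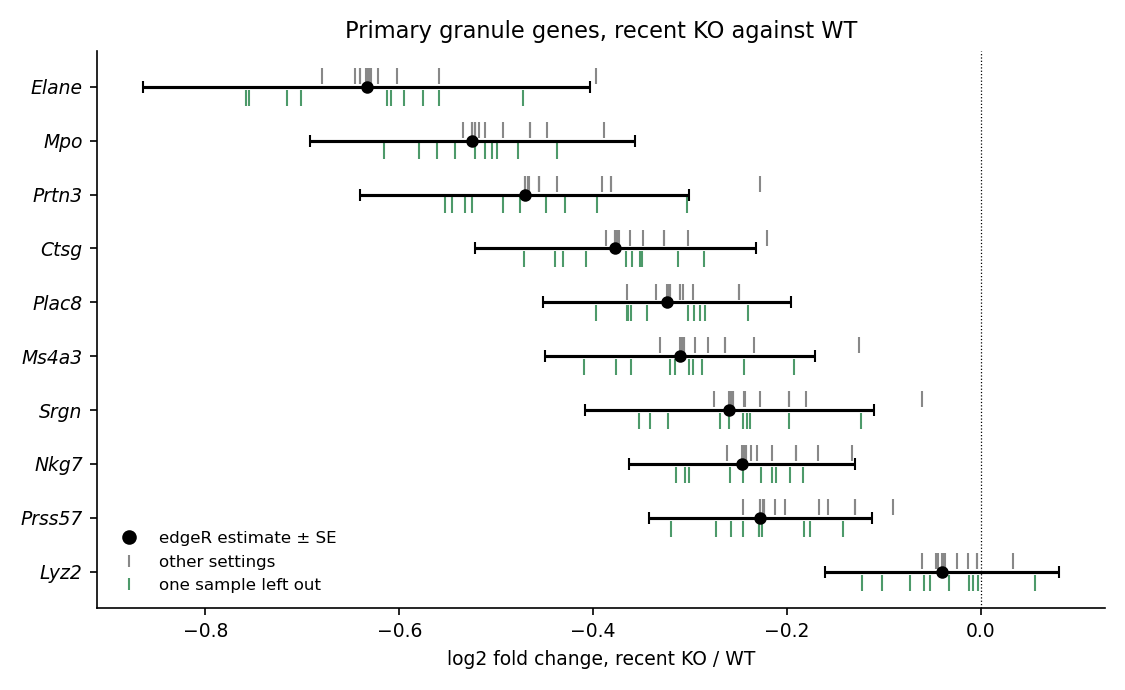
Log2 fold change (recent KO relative to WT) of each primary granule gene. Points with bars are edgeR estimates ± SE, gray ticks are other settings, and green ticks are fits that leave 1 sample out. *Elane* and *Mpo* lie farthest from 0 at -0.63 and -0.52, and ticks cross 0 for *Lyz2* alone.

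WT sample 4 and recent KO sample 3 carried much of the size of these differences. WT sample 4 was the highest of the 10 samples for 9 of the genes, all but *Lyz2*, and recent KO sample 3 was the lowest for 8 of them, all but *Plac8* and *Lyz2*. Over the fits that leave 1 sample out, 3 to 9 of the 10 genes were lower at an unadjusted p below 0.05. There were 3 without WT sample 4, where 4.09% of all genes tested were lower, and 3 without recent KO sample 3, where 4.12% were. Without recent KO sample 1 there were 9, where 5.83% of all genes tested were lower. Leaving out both WT sample 4 and recent KO sample 3, which was done after seeing the data, left 1 of the 10 and a median log2 fold change of -0.18, against 3.32% of all genes lower at that p. In that fit *Mpo* was at -0.39, *Elane* at -0.40, and *Prtn3* at -0.23 on the log2 scale.

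Agreement between the genes was examined over all 10 samples together, and not in each group alone. The group mean of log2 CPM was subtracted, and the deviations of the 10 samples were correlated for all 45 pairs. Two-sided permutation p-values came from 100000 shuffles within groups. The median Pearson r was 0.72, 36 pairs were positive, and 27 of 45 pairs had an adjusted p below 0.05 by Pearson's r and 20 by Spearman's rho. No share over pairs of other genes is given, so whether these counts are high for these samples was not tested. Both genes of a pair share the library scaling of each sample. Scaling by the reads of all other genes gave a median r of 0.66, and log2(TPM + 1) gave 0.56.

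Among the pairs, *Prtn3* and *Ctsg* had r = 0.95 (adjusted permutation p = 0.0040) and rho = 0.98 (adjusted permutation p = 0.0067), and r = 0.92 without the 2 samples farthest from the median of *Prtn3*. *Ms4a3* and *Srgn* had r = 0.95 (adjusted permutation p = 0.0060) and rho = 0.88 (adjusted permutation p = 0.023), and r = 0.85 without the 2 farthest samples. *Mpo* and *Elane* had r = 0.89 (adjusted permutation p = 0.0098) and rho = 0.85 (adjusted permutation p = 0.023), and r = 0.73 without recent KO samples 2 and 3. *Mpo* had lower values with *Srgn* (r = 0.60), *Nkg7* (r = 0.61), and *Ms4a3* (r = 0.59), and the differences between correlations were not tested.

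*Lyz2* and *Plac8* departed from the rest. All 9 pairs with *Lyz2* were negative, with r from -0.56 to -0.05, and none passed the adjusted threshold. Without the 2 samples farthest from the median of the first gene, 4 of these 9 pairs were positive, and the sign of those pairs rested on the samples left out. *Plac8* had r = 0.13 with *Mpo* (0.73 without recent KO samples 2 and 3) but 0.79 with *Nkg7* (rho = 0.77, adjusted permutation p = 0.012 and 0.023). The low value with *Mpo* rested on these samples, as did that with *Elane* (0.32, and 0.87 without them). Other pairs of *Plac8* went the other way without the 2 samples farthest for the first gene. The r fell from 0.32 to -0.14 with *Prtn3*, from 0.33 to -0.13 with *Prss57*, and from 0.49 to 0.14 with *Ctsg*. Of the 8 pairs of *Plac8* with genes other than *Lyz2*, 3 passed the adjusted threshold by Pearson's r and 1 by Spearman's rho.

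**Figure D4:**
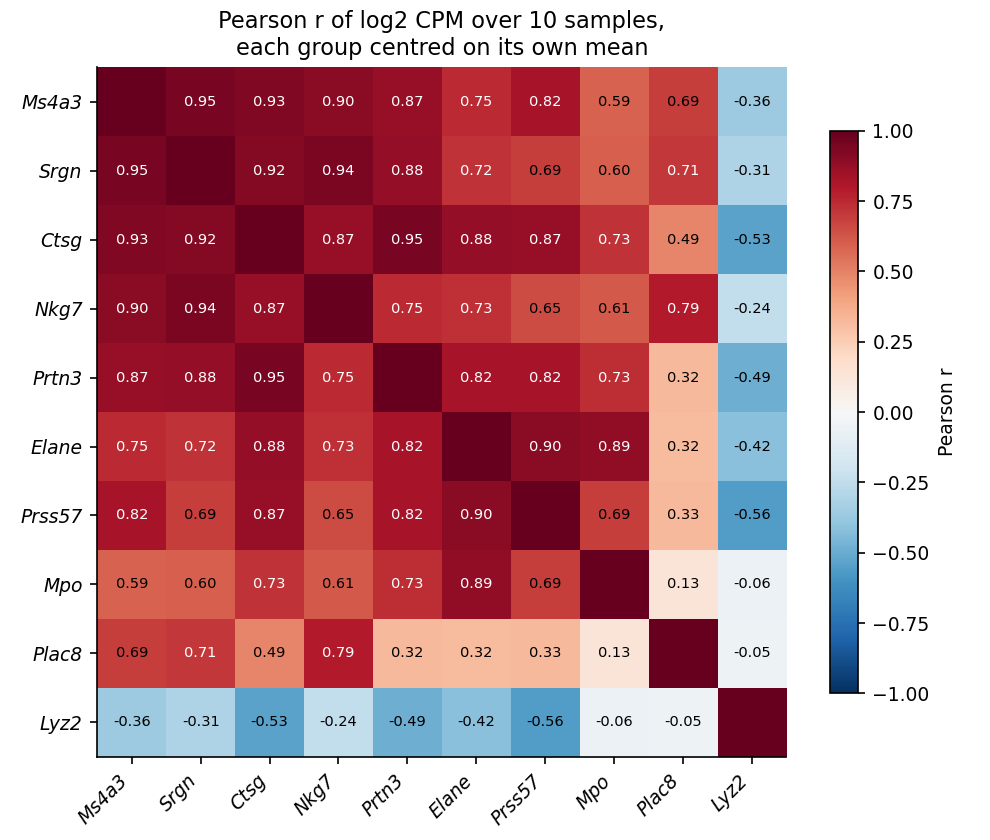
Pearson r of log2 CPM over the 10 samples for each pair of genes, after each group was centred on its own mean, from blue (-1) to red (1). The genes are ordered by their correlation with the mean of the 10, and the row of *Lyz2* is negative throughout, from -0.56 to -0.05.

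The genes most like the mean of the 10 over these 10 samples were *Rnaset2a* (r = 0.98), *Ypel5* (r = 0.96), *Rnaset2b* (r = 0.95), *Cdk5rap1* (r = 0.95), and *Mogat2* (r = 0.94), chosen among 12371 other genes as the 5 with the highest r. Of those genes, 162 (1.31%) had r above 0.8. *Rnaset2a* and *Rnaset2b* are near-identical copies that encode the lysosomal ribonuclease T2, so reads may be divided between them. *Rnaset2a* had 285 to 386 CPM in WT samples and 216 to 298 CPM in recent KO samples (log2 fold change -0.30, adjusted p = 0.298, edgeR).

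Salmon's estimates also divide each gene between annotated transcripts. *Elane* and *Lyz2* have 1 annotated transcript each, and the main transcript took on average 99.6 and 99.4% of the reads of *Ctsg* and 99.7 and 99.8% of those of *Plac8* in WT and recent KO samples. *Mpo* was divided between Mpo-203 (87.6% ± 0.529 in WT and 86.6% ± 0.667 in recent KO samples, SD, n = 5) and Mpo-201. *Prtn3* was the gene with the largest second transcript. Prtn3-204, a transcript of 786 bases annotated as of the retained intron type, took 39.3, 40.64, 39.0, 35.1, and 39.4% of the estimated reads of *Prtn3* in WT samples. In recent KO samples it took 40.4, 39.0, 53.8, 47.4, and 45.05%. Recent KO samples 3, 4, and 5 were above all WT samples, and recent KO samples 1 and 2 were among them. The difference did not pass an exact permutation test (p = 0.0714, adjusted p = 0.250 over the 14 transcripts whose share varied), and neither did that of Mpo-203 (exact permutation p = 0.0238, adjusted p = 0.222). Whether these reads came from mature or unspliced RNA was not tested.

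Near copies and overlapping genes of the members were sought by sequence and position. The main transcript of *Lyz2* was 95.8% identical to *Lyz1* over 1264 bases, but *Lyz1* held 0.00855% of the reads assigned to *Lyz2*. *Elane* and *Prtn3* were 64.8% identical over 610 bases, and *Prtn3* held 31.2% of the reads assigned to *Elane*. *Prss57* and *Ralb* were 70.3% identical over 172 bases, and *Ralb* held 6.83% of the reads assigned to *Prss57*. In addition, *Mpo* and *Epx* were 71.9% identical over 2059 bases. *Gm11505*, on the other strand of *Mpo*, held 0.0541% of the reads of *Mpo*, *Plppr3*, on the other strand at the annotated start of *Prtn3*, held 2.27% of those of *Prtn3*, and *Fstl3* held 0.288% of those of *Prss57*. The kit does not keep the strand, so reads shared with these genes cannot be told apart.

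Genes that act on the granule proteins were examined as lists, with the 10.2% of all genes at an unadjusted p below 0.05 in either direction as the background. Of 9 tested genes for the maturation and inhibition of the proteases, 0 were called, 1 was higher and 2 were lower at an unadjusted p below 0.05, and the median log2 fold change was -0.14. *Ctsc*, the activator of the serine proteases, was at 82.8 to 118 CPM in WT samples and 66.4 to 91.4 CPM in recent KO samples (log2 fold change -0.24, adjusted p = 0.429, edgeR). *Slpi*, a secreted inhibitor of elastase and cathepsin G, had a log2 fold change of -0.31 (adjusted p = 0.364), and *Serpina3g*, an inhibitor of cysteine proteases, one of 0.62 (adjusted p = 0.207). Of 14 tested genes that build the glycosaminoglycan chains that serglycin carries, 0 were called, 0 were higher and 2 were lower at an unadjusted p below 0.05, and the median was -0.07. *Chst12*, which sulfates chondroitin chains, was at 135 to 151 CPM in WT samples and at 101 to 130 CPM in recent KO samples, without overlap (log2 fold change -0.28 ± 0.07 (SE), adjusted p = 0.139, edgeR).

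Of 21 tested genes for other azurophil and lysosomal contents, 1 was called, which was *Psap*, and at an unadjusted p below 0.05 4 were lower and 0 were higher, with a median log2 fold change of -0.10. *Psap*, the precursor of the saposins that assist lysosomal lipid hydrolysis, fell, with 57.4 to 71.1 CPM in recent KO samples against 79.9 to 86.4 CPM in WT samples (log2 fold change -0.34 ± 0.07 (SE), adjusted p = 0.0468, edgeR), and was called in 4 of the 23 other settings. *Hexa* (log2 fold change -0.28, adjusted p = 0.137) and *Cd68* (log2 fold change -0.20, adjusted p = 0.364) were not called. *Cd63*, the membrane protein of azurophil granules with the highest level of the list, was at 809 to 1170 CPM in WT samples and at 700 to 1124 CPM in recent KO samples (log2 fold change -0.11, adjusted p = 0.844, edgeR).

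Of 18 transcriptional regulators of granule genes, 0 were called, 1 was higher and 9 were lower at an unadjusted p below 0.05, and the median log2 fold change was -0.20. *Spi1*, which encodes PU.1, was at 327 to 420 CPM in WT samples and at 280 to 345 CPM in recent KO samples (log2 fold change -0.25 ± 0.08 (SE), adjusted p = 0.270, edgeR). *Zeb2*, a repressor, had a log2 fold change of -0.30 (adjusted p = 0.298), and *Gfi1b*, which acts mainly in erythroid and megakaryocytic cells, one of 1.23 (adjusted p = 0.186). *Cebpa*, *Cebpe*, and *Gfi1*, chosen after their values were seen because they are textbook regulators of granulopoiesis, had log2 fold changes of -0.04 (adjusted p = 0.937), -0.47 (adjusted p = 0.305), and -0.22 (adjusted p = 0.458).

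Of 16 tested genes of secondary and late granules, 0 were called, and 6 were higher and 1 was lower at an unadjusted p below 0.05. The median log2 fold change was 0.72, with 10 genes positive and 6 negative. *Ltf*, lactoferrin, was at 1.09 to 5.49 CPM in WT samples and at 1.76 to 29.5 CPM in recent KO samples (log2 fold change 1.84 ± 0.59 (SE), adjusted p = 0.273, edgeR), and *Ngp* at 10.7 to 37.7 CPM in WT samples and 7.62 to 155 CPM in recent KO samples (log2 fold change 1.53, adjusted p = 0.361). *S100a8*, the highest of the list per length, had a log2 fold change of -0.08 (adjusted p = 0.969). In every sample the whole list summed to 788 to 2132 CPM, against 61351 to 139962 CPM for the 10 primary granule genes.

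**Figure D5:**
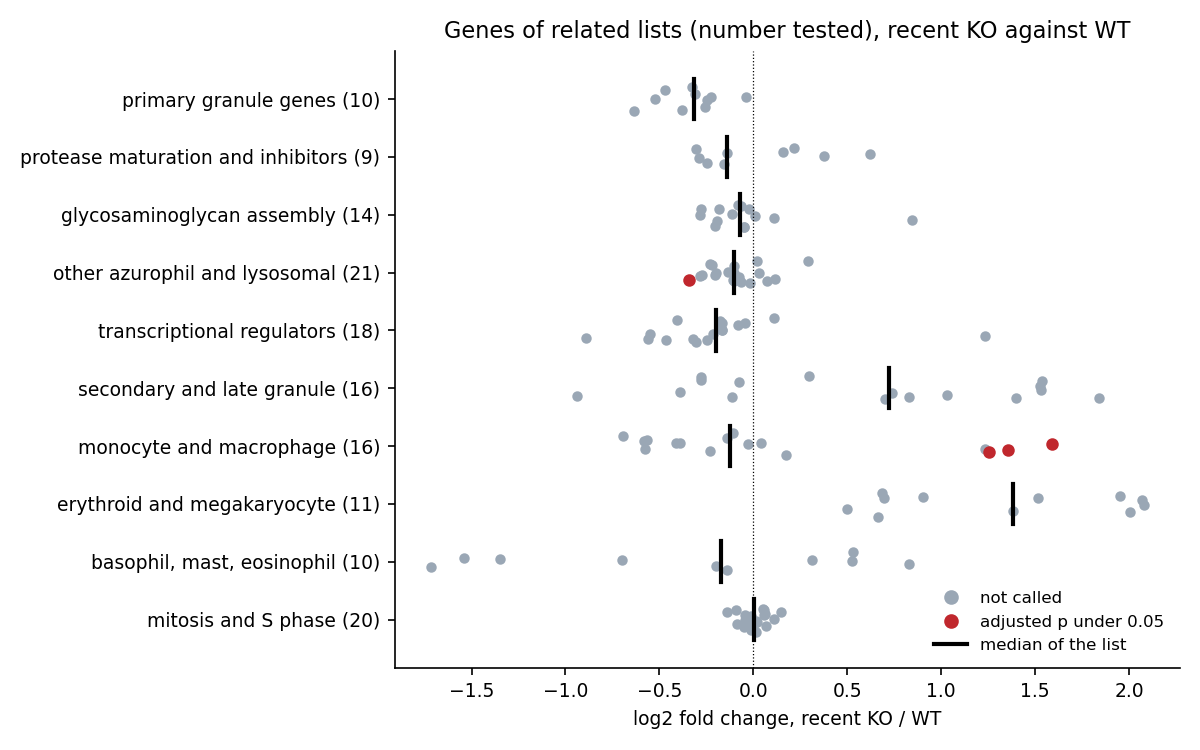
Log2 fold changes (recent KO relative to WT) for the tested genes of the primary granule genes and 9 related lists, with 1 point per gene and a bar at each list's median. Red points passed an adjusted p below 0.05, which were *Psap* and the C1q genes. The medians run from -0.32 for the primary granule genes to 1.38 for the erythroid and megakaryocyte genes.

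Markers of other cells also differed between samples. The 13 erythroid and megakaryocyte markers had a summed level of 58.4 to 110 CPM in WT samples and of 94.2, 88.9, 330, 263, and 230 CPM in recent KO samples 1 to 5. Of 11 tested, 8 were higher at an unadjusted p below 0.05 and 0 were called, with *Hbb-bs* at 2.84 to 11.1 CPM in WT samples and 5.25 to 58.8 CPM in recent KO samples (log2 fold change 2.08, adjusted p = 0.214, edgeR). The 16 monocyte and macrophage markers had a summed level of 2504 to 3913 CPM in WT samples and of 3596, 3684, 983, 1980, and 2073 CPM in recent KO samples 1 to 5, most of it *Ly6c2*. Recent KO samples 3, 4, and 5, whose summed granule share was the lowest, had the highest erythroid and the lowest monocyte sums. Of the monocyte and macrophage list, *C1qa*, *C1qb*, and *C1qc* rose (log2 fold changes 1.254, 1.35, and 1.59, adjusted p = 0.0406, 0.0160, and 0.0383, edgeR), at 1.71 to 15.9 CPM in all samples. *C1qb* was called in 17 of the 23 other settings, *C1qa* in 11, and *C1qc* in 10. The part of these markers in the granule results was not tested.

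*Nkg7* is also a gene of cytotoxic lymphocytes, whose markers were far lower than *Nkg7* itself. The 15 NK and T cell markers summed to 6.22 to 17.0 CPM in WT samples and 14.0 to 19.5 CPM in recent KO samples, and 11 of them were too low to be tested. Of the 4 tested, 0 were called and 2 were higher at an unadjusted p below 0.05, where 4.89% of all genes tested were higher. *Ccl5*, the highest per length, was at 3.50 to 9.89 CPM in WT samples and 5.11 to 7.67 CPM in recent KO samples. *Lck* was at 2.10 to 3.95 CPM in WT samples and 4.08 to 5.77 CPM in recent KO samples. *Il2rb* was at 0 to 0.499 CPM in WT samples and 0.609 to 1.27 CPM in recent KO samples, without overlap (log2 fold change 1.87, adjusted p = 0.211, edgeR). *Klrb1c* was at 0.233 to 0.979 CPM in WT samples and 0.426 to 1.37 CPM in recent KO samples (log2 fold change 0.22, adjusted p = 0.902, edgeR). *Nkg7* itself was at 1629 to 2629 CPM over all samples.

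Within the gate, *Fcgr3* was at 357 to 456 CPM in WT samples and at 153 to 318 CPM in recent KO samples, without overlap (log2 fold change -0.65 ± 0.15 (SE), adjusted p = 0.107, edgeR). *Flt3*, which marks earlier progenitors, was at 10.2 to 15.2 CPM in WT samples and at 18.2 to 37.8 CPM in recent KO samples, also without overlap (log2 fold change 0.98 ± 0.20 (SE), adjusted p = 0.0597, edgeR). CD16/32 was itself used to draw the gate. Of 13 tested gate genes, 0 were called, and among them *Cd34* (log2 fold change 0.25), *Kit* (0.08), *Cd27* (0.22), *Ptprc* (0.02), *Csf2ra* (-0.41), *Csf2rb* (0.04), *Fcgr2b* (-0.18), *Il6ra* (-0.34), *Ly6a* (0.19), and *Slamf1* (0.08) had adjusted p-values from 0.366 to 0.967.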

How the data were processed

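RNA-seq of 10 GMP samples was analysed. The authors sequenced SMARTseq libraries and quantified GENCODE M27 (GRCm39) transcripts with Salmon (1.5.1 in the submitters' processing notes, which also name DESeq2 2.11.40.6). The authors deposited, for each transcript, estimated counts without normalization, and TPM; their own DESeq2 table of fold changes and p-values was not used. Transcripts were matched by identifier to GENCODE M21 (GRCm38), 137161 of 140789, leaving out at most 0.390% of the reads of a sample, summed per gene, and rounded.

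edgeR 4.0.16 (R 4.3.3) tested 12381 genes kept by filterByExpr (minimum count 10) with TMM and condition as the only term. SEs are the log2 fold change divided by the square root of F. Alternatives were other scalings, filters, DESeq2 1.42.0, limma 3.58.1 on log2(TPM + 1) and log2(TPM + 0.1), a transcript length offset, robust dispersions, a replicate block, and leaving samples out. Levels of log2 CPM for correlations used a pseudocount of 0.5 CPM. Near copies were sought with BLAST 2.17.0. The edgeR step was tested on simulated data. There it recovered 2% of the genes set to differ 1.25-fold, 28% at 1.5-fold, 86% at 2-fold, and 98% at 3-fold. Of the genes called there, 1.83% were false with edgeR and 8.94% with DESeq2.

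Named genes were the 10 members, per list the genes called, the 3 with the smallest p and the one of highest TPM, all gate genes, *Mpc2*, and the 5 most alike genes. The single results of some genes are not reported here. The members, lists, and rules were chosen with earlier results of these data known. Samples of a group came from separate mice or pools. Chi-square statistics of 6.32 to 41.8 per gene between replicates left no pair within sampling noise.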

Additional observations from a re-analysis of the deposited data

Results flagged for a closer look

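In 148 groups of 5 samples, 1 had a sample far from the others: *Lck* in recent KO sample 3 was at 5.77 CPM, where the other recent KO samples were at 4.08 to 4.43 CPM. About 1 in 20 such groups is set apart by chance, or 7.4 here. None of the 20 groups of the primary granule genes was set apart.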

How the results depend on the processing

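All values of the summed share and of the median correlation stayed within the spread between samples or pairs: leaving out 1 sample gave ratios of 0.711 to 0.794 and median r of 0.68 to 0.86, and leaving out both WT sample 4 and recent KO sample 3 gave a ratio of 0.817. Called genes, 41 of all tested, 0 of the primary granule genes, and 4 of the related lists, moved as follows. Without a filter on low counts edgeR called 206 genes, 3 of the 10 (*Mpo*, *Elane*, and *Prtn3*, adjusted p = 0.0167, 0.0231, and 0.0441), and 28 of the lists. DESeq2 called 156, 1, and 13. Limma called 25 genes on log2(TPM + 1) and 24 on log2(TPM + 0.1), and 1 of the lists on each. The length offset called 1 of the lists. Leaving out both samples called 18 genes, 0 of the 10, and 0 of the lists. Leaving out 1 sample called 25 to 91 genes, 91 without recent KO sample 2, 0 of the 10, and 0 to 6 of the lists. *Lyz2* changed sign with library size scaling (a log2 fold change of 0.034) and without recent KO sample 1 (0.056), with values of -0.12 to 0.056 over the fits without 1 sample. The causes were not tested.

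Replicate numbers are not stated to pair the samples. Deviations of same-numbered samples correlated at -0.18 to 0.05, which cannot exclude a shared day or batch. With the replicate block edgeR called 20 genes, 0 of the 10, and 0 of the lists.

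The limits are 5 samples per group, pooled mice in 1 group only, reads that are not independent molecules, and an annotation older than that of the authors. The pooled group did not vary less. For tested genes with a mean above 100 CPM, the median SD of log2 CPM was 0.121 in recent KO samples and 0.0922 in WT samples.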

Other observations

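Of 15 tested paralogs and genomic neighbours of the primary granule genes, 0 were called, 2 were higher and 4 were lower at an unadjusted p below 0.05, and the median log2 fold change was -0.09. *Mcpt8*, a serine protease of basophils related to *Ctsg*, was at 117 to 165 CPM in WT samples and 141 to 238 CPM in recent KO samples (log2 fold change 0.53, adjusted p = 0.112, edgeR). *Epx*, the eosinophil paralog of *Mpo*, was at 0.898 to 10.9 CPM in WT samples and 0.280 to 2.44 CPM in recent KO samples (log2 fold change -1.72, adjusted p = 0.387, edgeR). *Ms4a6c*, a relative of *Ms4a3*, had a log2 fold change of -0.34 (adjusted p = 0.291, edgeR).

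Of the other lists, basophil, mast cell, and eosinophil markers had 0 of 10 tested genes called and a median log2 fold change of -0.17, with *Gata2* at 0.83 (adjusted p = 0.325). The 7 tested plasmacytoid and dendritic cell genes and the 3 tested B cell genes had 0 called, with medians of 0.13 and -0.11. The 20 genes of mitosis and S phase had 0 called and a median of 0.01, with 10 log2 fold changes positive and 10 negative. *Ccnb1* was at 213 to 227 CPM in WT and 230 to 251 CPM in recent KO samples (log2 fold change 0.15, adjusted p = 0.298, edgeR). Its groups did not overlap, as for 2.43% of all genes tested. *Pcna* (log2 fold change 0.11, adjusted p = 0.504), *Cdk1* (0.06, adjusted p = 0.794), and *Rrm2* (-0.14, adjusted p = 0.605) were not called by edgeR either.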
